A study of Mus musculus with 4 samples.

Results

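The miR-183, miR-96 and miR-182 cluster was followed in extracellular vesicles (EVs) released by mouse hepatocytes. Its members are the 3 mature miRNAs of the 5p arms, mmu-miR-183-5p, mmu-miR-96-5p and mmu-miR-182-5p (written below without the species prefix). They were picked by name from the 1881 mouse miRNAs on the array. Their signals were not part of the rule, but earlier results of these data were known when the members were chosen. EVs are small membrane-bound particles that carry RNA and protein out of a cell. They were collected by ultracentrifugation from the medium of primary hepatocytes cultured for 48 h, and their RNA was hybridised to 4 single-colour Agilent arrays. The Chow-EV and HFD-EV samples came from wild-type male B6 mice, and the Chow-LKO EV and HFD-LKO EV samples from male B6 mice with Ggpps deleted in the liver. All mice were 20 weeks old and had been kept for 12 weeks, from 8 weeks of age, on normal chow or on a high-fat diet (HFD) with 60% of calories from fat. Ggpps encodes geranylgeranyl diphosphate synthase, which makes the isoprenoid used for protein geranylgeranylation. The LKO mice carried floxed Ggpps and Mx1-Cre, and were injected with PIPC at 7 weeks of age. The Mx1 promoter answers to interferon, so Cre is induced in liver but also in other interferon-responsive cells such as blood cells. Whether the wild-type animals were injected too is not given in the sources used here. The array holds no probe for Ggpps mRNA, so the deletion could not be checked in these data.

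Each group was 1 array, hybridised with RNA from EVs pooled over 4 animals. No spread between animals or preparations could therefore be measured, no group comparison could be tested, and the errors given here are SDs between replicate spots of 1 array. All 4 arrays shared 1 slide and 1 scan. A miRNA counted as above background when it had a probe with over 50% of its kept spots flagged well above background by the scanner software. By this rule 482 to 508 miRNAs were above background on an array and 443 were so on all 4. The hepatocyte markers, miR-122-5p among them, were above background on all 4 arrays for 6 of 6 listed miRNAs, with a summed scaled signal between 16717.5% and 18690.6% of the array's 75th percentile. In bulk EV preparations fewer vesicles from one kind of cell and less of a miRNA per vesicle cannot be told apart.

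The 3 miRNAs are cut from one transcript and are best known from sensory organs, where they are abundant in hair cells and photoreceptors, and from epithelia. The sterol-regulated factor SREBP2 is known to induce the cluster, and miR-96 and miR-182 repress Insig2 and Fbxw7, which restrain SREBP activity. miR-96 is also known to repress SR-BI, the hepatic receptor that takes up cholesterol from HDL. A miRNA finds its targets mainly through its seed, bases 2 to 8 from the 5′ end.

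The mature sequences are shown because the members' seeds are near copies of each other, and the opposite arm of the miR-183 hairpin is shown because it was also measured above background. They come from RefSeq, GRCm38.p6, run 5′ to 3′, and have the seed in capitals.
miR-183-5p: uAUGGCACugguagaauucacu
miR-96-5p: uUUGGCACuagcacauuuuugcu
miR-182-5p: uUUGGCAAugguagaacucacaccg
miR-183-3p: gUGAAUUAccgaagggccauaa

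The seeds of miR-183-5p and miR-96-5p were equal at 6 of 7 positions, those of miR-96-5p and miR-182-5p at 6 of 7, and those of miR-183-5p and miR-182-5p at 5 of 7. Bases 2 to 7 were identical in miR-96-5p and miR-182-5p, and among the 1608 miRNAs of the array with a RefSeq sequence (85.5%) these were the only 2 with that stretch. No other matched miRNA carried the full seed of a member, nor that of miR-183-3p. Outside the seed, miR-183-5p and miR-182-5p shared a run of 8 bases. The hybridisation probes follow these sequences, and the deposited annotation gives 1 probe sequence for each miRNA. They are shown 5′ to 3′, with the run of 7 bases shared by the miR-183-5p and miR-182-5p probes in capitals.
miR-183-5p probe: agtgaaTTCTACCagtgcc
miR-96-5p probe: agcaaaaatgtgctagtgccaa
miR-182-5p probe: cggtgtgagTTCTACC

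The miR-183-5p probe pairs with bases 4 to 22 of its target, the miR-96-5p probe with bases 2 to 23, and the miR-182-5p probe with bases 10 to 25, so only the miR-96-5p probe spans a whole seed. Each member had 2 probes on the array, named A_54_P2350 and A_54_P2351 for miR-183-5p, A_54_P1331 and A_54_P1332 for miR-96-5p, and A_54_P2347 and A_54_P2348 for miR-182-5p. Which of the 2 probes carries the listed sequence is not given in the sources used here.

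The hairpins lie on the minus strand of chromosome 6 (GRCm38.p6). Mir183 spans 30169668 to 30169737, Mir96 spans 30169446 to 30169551 and Mir182 spans 30165918 to 30165992. Mir183 and Mir96 are separated by 116 bases, while 3453 bases separate Mir96 from Mir182. All 3 lie within the long non-coding RNA gene Mirc35hg (30158640 to 30174125), in the order miR-183, miR-96, miR-182 from its start, as the map of the host transcript shows. The flanking protein-coding genes are Nrf1, which encodes a transcription factor of mitochondrial genes, and Ube2h, which encodes a ubiquitin-conjugating enzyme. The start positions in the deposited annotation equalled those of RefSeq for the 6 arms of the 3 hairpins.

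**Figure D1:**
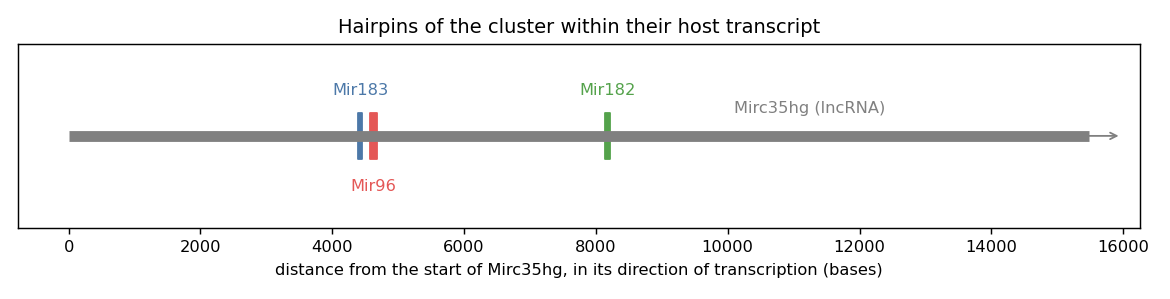
Position of the 3 hairpins (coloured blocks) within the host transcript Mirc35hg (grey bar), by distance in bases from its start in the direction of transcription. Mir183 and Mir96 lie 116 bases apart, and Mir182 follows 3453 bases after Mir96.

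All 3 members were dim. Each array's brightness was taken as the 75th percentile of the signal of the 443 miRNAs that passed on all arrays. In arbitrary fluorescence units it was 508 for chow and 561 for HFD in wild-type EVs, and 614 and 528 in LKO EVs. The brightest reading of a member was 7.18% of it. miR-96-5p was above background on 2 arrays, miR-182-5p on 1 and miR-183-5p on none. The lowest summed signal of any miRNA above background, the array's floor, was between 13.8 (HFD-LKO EV) and 19.9 (HFD-EV). As probes of different sequence bind with different strength, the signals of the 3 members give no order of abundance among them.

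miR-96-5p was the only member above background in both HFD samples and in neither chow sample. Its signal, summed over both probes, was 10.5 ± 3.66 in Chow-EV (SD between spots, 28 spots) and 40.3 ± 6.38 in HFD-EV (29 spots). In the LKO samples it was 9.14 ± 2.60 with chow (27 spots) and 22.9 ± 3.37 with HFD (28 spots). The 2 chow samples were thus alike within their spot SDs, and both HFD samples were higher, HFD-EV the most. Of its kept spots, 25 of 29 in HFD-EV and 12 of 28 in HFD-LKO EV were well above background, against 0 of 28 in Chow-EV and 0 of 27 in Chow-LKO EV. Of the 1881 miRNAs, 6 were above background in HFD-EV and HFD-LKO EV only, and 3 in Chow-EV and Chow-LKO EV only. The other 5 of the first kind, chosen after their values were seen, were miR-150-3p, miR-1943-5p, miR-1968-5p, miR-324-5p and miR-6359.

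Both miR-96-5p probes gave the same order in wild-type EVs. For A_54_P1331 the spots ran from -0.693 to 8.97 in Chow-EV and from 12.1 to 23.9 in HFD-EV. For A_54_P1332 they ran from 3.01 to 10.04 in Chow-EV and from 12.3 to 31.8 in HFD-EV. Before scaling, every HFD-EV spot was therefore brighter than every Chow-EV spot of the same probe. In this direction 8.06% of the array's 4415 miRNA probes showed such a separation, also before scaling. The HFD array of this wild-type pair was the brighter one, at 561 against 508. In HFD-LKO EV only A_54_P1332 was above background, and before scaling the spots of both probes overlapped those of Chow-LKO EV. For A_54_P1332 this overlap was narrow, with the lowest HFD spot at 11.3 and the highest chow spot at 12.1. The chow array of the LKO pair was the brighter one, at 614 against 528. Divided by these values the spots change order, so the scaled spots of A_54_P1332 do not overlap.

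miR-182-5p was above background in HFD-LKO EV alone. Its summed signal in wild-type EVs was 3.58 ± 3.02 with chow (29 spots) and 18.4 ± 3.87 with HFD (26 spots). In LKO EVs it was 9.73 ± 3.16 with chow (28 spots) and 21.8 ± 3.39 with HFD (28 spots). Both HFD samples were brighter than either chow sample, and the HFD samples lay within the sum of their spot SDs. The 2 probes of miR-182-5p gave the same direction but differed in how far they separated the diets. The spots of A_54_P2348 ran in wild-type EVs from -0.295 to 6.22 with chow and from 10.3 to 17.6 with HFD, and in LKO EVs from 4.78 to 12.5 and from 13.9 to 25.5. Before scaling, the HFD spots of this probe lay above the chow spots without overlap in wild-type and in LKO EVs. For the LKO pair 3.76% of all probes did so, also before scaling. The spots of A_54_P2347 were dim on all arrays and overlapped in both diet comparisons. Their means were still higher with HFD, at 0.440 with chow and 4.31 with HFD in wild-type EVs. In LKO EVs the means were 0.547 and 2.96. In HFD-EV 3 of the 15 A_54_P2348 spots were left out as outliers and 4 of the 12 kept were well above background, so the miRNA stayed below the 50% rule there.

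miR-183-5p was not above background on any array. Its summed signal in wild-type EVs was 2.10 ± 3.44 with chow (30 spots) and 2.97 ± 3.60 with HFD (29 spots). In LKO EVs it was 6.82 ± 3.17 with chow (29 spots) and 10.9 ± 3.48 with HFD (30 spots). The wild-type samples were near 0, and HFD-LKO EV was the brightest sample, with 1 of 30 spots well above background. The spots of both its probes overlapped in all 4 comparisons. The 95th percentile of single negative-control spots was between 1.38 and 2.54 on the 4 arrays, and their median between -2.84 and -2.24. These values are for single spots and cannot be set directly against the summed signal of 2 probes.

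**Figure D2:**
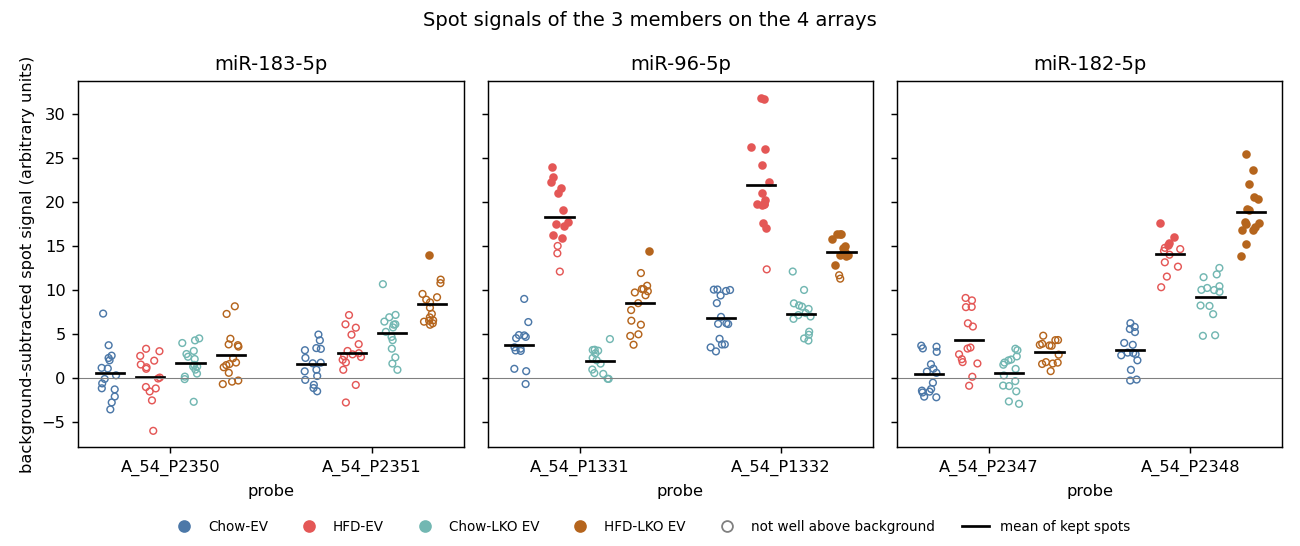
Background-subtracted signal, in arbitrary units, of every kept spot of the 2 probes of each member on the 4 arrays; filled points were well above background, open points were not, and black bars are spot means. For miR-96-5p the HFD-EV spots of both probes lie above all Chow-EV spots, for miR-182-5p this holds for probe A_54_P2348 only, and the spots of miR-183-5p overlap in each of the 4 comparisons made.

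The diet comparison in wild-type EVs asked how HFD feeding altered the miRNAs that hepatocytes export. Scaled to the array's 75th percentile, miR-96-5p read 2.07% in Chow-EV, where it was not above background, and 7.18% in HFD-EV. Set against the floor of the Chow-EV array, it was at least 2.35-fold higher in HFD-EV (log2 bound 1.23). Such a bound divides the bright sample by the higher of the dim array's floor and the dim signal itself, and its direction is set by which array passed the detection rule. It was the only member past 2-fold. Of the 511 miRNAs with a ratio or a bound here, 2.74% were past 2-fold upwards and 1.76% downwards. No other member had a value here. miR-182-5p passed the 50% rule on neither array and was given no fold. With the scanner software's own detection call, which counted it as present in HFD-EV, its log2 bound was 0.97. Its scaled signal was 0.704% in Chow-EV and 3.29% in HFD-EV, a difference of 2.58 ± 0.91 percentage points. miR-183-5p differed by 0.12 ± 0.93 points, less than its spot SD, and 41.6% of the 1339 miRNAs above background on no array had a difference at least as high.

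The size of the miR-96-5p value depended on the processing, while its direction was set by the detection rule in most alternatives. The log2 bound was 1.76 with the scanner software's own detection call, and it fell to 0.72 on the log2 scale with the brightest probe alone, to 0.42 with the authors' normalised values and to 0.13 after normexp background correction with an offset of 50, which compresses dim signals. With all signals raised to the array's floor the median over the 3 members was 0.22. The other 2 members were then at the floor on both arrays, so this value is the ratio of the scaled floors.

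In LKO EVs the same diet comparison gave lower bounds for 2 members. miR-96-5p was at least 1.57-fold higher in HFD-LKO EV than in Chow-LKO EV (log2 bound 0.65), with scaled signals of 4.34% and 1.49%. miR-182-5p was at least 1.49-fold higher (log2 bound 0.58), with scaled signals of 4.13% and 1.58%. No member reached a bound of 2-fold, which 4.21% of 522 miRNAs did upwards and 1.53% downwards. Both bounds point upwards because only HFD-LKO EV passed the detection rule. Their median, 0.61, was 0.31 with quantile normalisation and 1.44 over 3 members with the scanner software's own detection call. miR-183-5p had 1.11% with chow and 2.07% with HFD, a difference of 0.96 ± 0.84 points, and 3.51% of the 1339 miRNAs above background on no array reached it.

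No member had a log2 ratio in both genotypes, so the diet change of LKO and wild-type EVs was compared on the scaled signal. For miR-96-5p the HFD minus chow difference was 5.11 ± 1.35 points in wild-type EVs and 2.85 ± 0.77 points in LKO EVs. The LKO difference was lower by 2.26 points, with a spot SD of 1.55. For miR-182-5p the diet difference was 2.58 ± 0.91 points in wild-type and 2.55 ± 0.82 points in LKO EVs, which is within the spot SD. For miR-183-5p the LKO difference exceeded the wild-type one by 0.85 ± 1.25 points. With 1 array per group none of these differences between genotypes could be tested.

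The genotype comparison asked which EV miRNAs depended on hepatic Ggpps. Under chow no member was above background in either genotype, so none has a ratio or a bound for Chow-LKO EV over Chow-EV, where 2.92% of 514 miRNAs were past 2-fold upwards and 5.45% downwards. The scaled signal of miR-96-5p was 2.07% in Chow-EV and 1.49% in Chow-LKO EV, and that of miR-182-5p 0.704% and 1.58%. miR-183-5p read 0.413% and 1.11%, a difference that 4.78% of the 1339 miRNAs above background on no array reached. The miR-96-5p values differed by less than 1 spot SD, as did those of miR-183-5p. Those of miR-182-5p differed by 0.88 ± 0.79 points, more than the spot SD.

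Under HFD miR-96-5p was the only member with a ratio between genotypes. It was above background in both HFD samples and was 1.65-fold lower in HFD-LKO EV than in HFD-EV (log2 ratio -0.73 ± 0.31). The spots of both its probes overlapped between these arrays, and the log2 ratio was -0.13 with normexp and -0.18 with the authors' normalised values. miR-182-5p was at least 1.16-fold higher in HFD-LKO EV (log2 bound 0.22), a value below its spot SD of 0.36. The median of these 2 values, a ratio and a bound, was -0.25. By the 50% rule no member passed 2-fold, while 7.87% of 521 miRNAs did so upwards and 7.49% downwards. miR-183-5p had 0.529% in HFD-EV and 2.07% in HFD-LKO EV, a difference of 1.55 ± 0.92 points, and 0.822% of the 1339 miRNAs above background on no array reached it. The scanner software's own detection call counted miR-183-5p as present in HFD-LKO EV and miR-182-5p in both HFD samples. With that call the log2 bound of miR-183-5p was 1.32, past 2-fold, and the median of the cluster turned to 0.38, over 3 members. With the software's total gene signal only miR-96-5p kept a value, at -0.77.

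**Figure D3:**
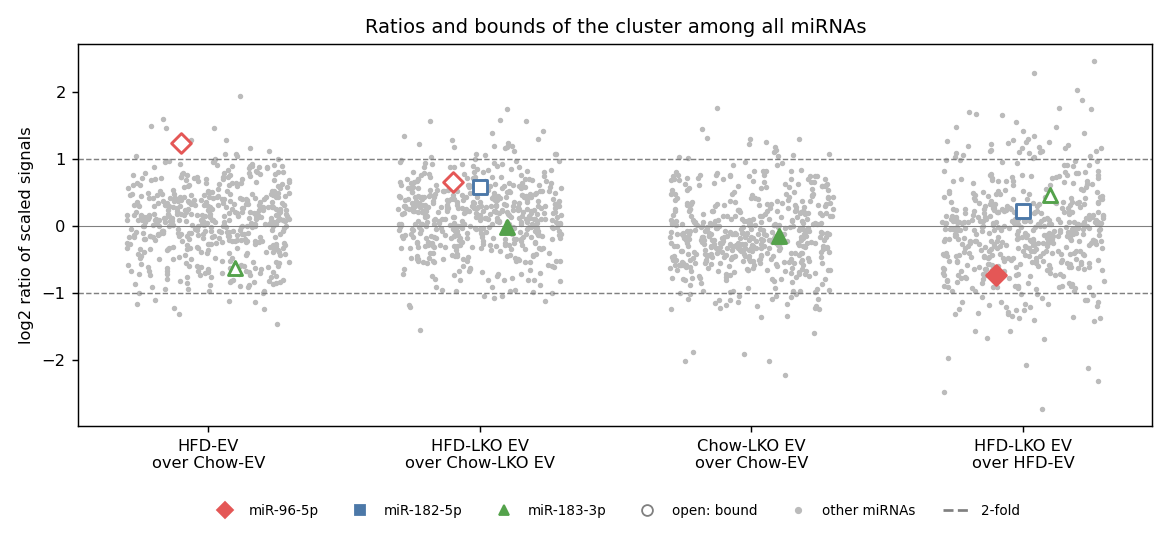
Log2 ratios of scaled signals of all miRNAs with a ratio or a bound (grey points) in the 4 comparisons, with miR-96-5p, miR-182-5p and miR-183-3p marked; open symbols are bounds and dashed lines mark a 2-fold difference. Of the 5p members only miR-96-5p passes the line, with a bound of 1.23 in HFD-EV over Chow-EV, and miR-183-5p has no value in any comparison.

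Of the opposite arms of the hairpins only miR-183-3p was above background. This arm, measured by 4 probes, had a summed signal of 34.5 ± 7.39 with chow and 24.6 ± 5.10 with HFD in wild-type EVs, and of 37.4 ± 5.16 and 31.8 ± 5.14 in LKO EVs. It was above background on all arrays except HFD-EV, a pattern shared by 15 miRNAs of the array, and on each of those 3 arrays through 1 of its 4 probes. In HFD-EV over Chow-EV its log2 bound was -0.63 ± 0.43, or 1.55-fold lower, the direction opposite to that of miR-96-5p. Its HFD-EV signal lay above that array's floor of 19.9. This bound and the one between genotypes under HFD therefore equal the ratios of the measured signals and are no lower limits. In the LKO pair its log2 ratio of HFD over chow was -0.01 ± 0.31. The bound for HFD-EV over Chow-EV moved to -0.09 with the brightest probe alone. The genotype values were -0.15 ± 0.37 under chow, which turned to 0.12 without scaling and to 0.08 with quantile normalisation, and, as a bound, 0.46 under HFD, with a spot SD of 0.38. The spots of each of its 4 probes overlapped in all comparisons. miR-96-3p and miR-182-3p lay at or below 0.64 on all arrays, so neither was detectable above background.

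**Figure D4:**
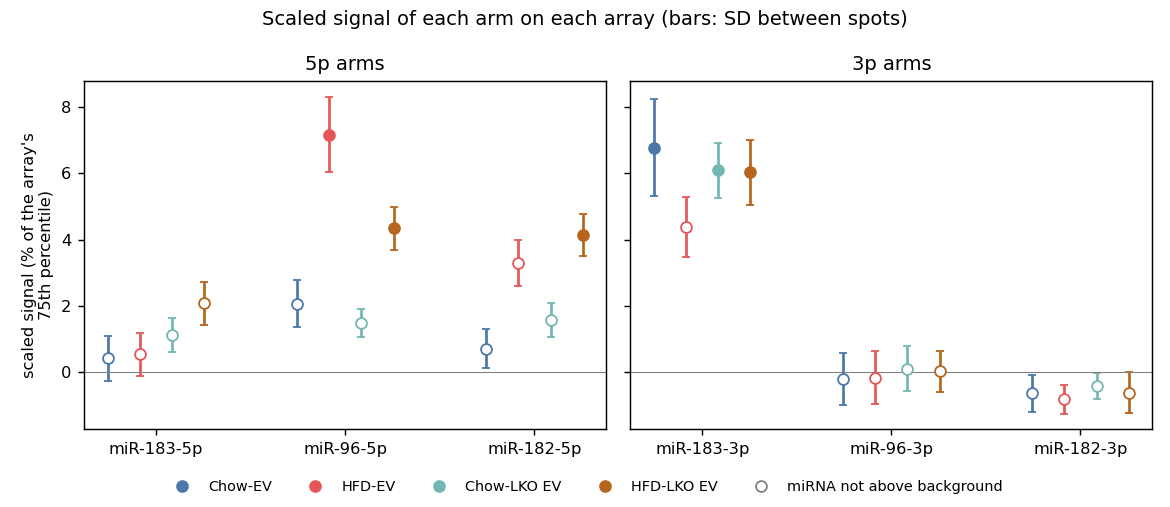
Scaled signal of the 5p arms and 3p arms, in percent of each array's 75th percentile, on the 4 arrays; bars are SDs between spots and open points were not above background. miR-96-5p is highest in HFD-EV at 7.18%, miR-183-3p is lowest in HFD-EV at 4.39%, and the miR-96-3p and miR-182-3p points lie near 0.

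Among 16 listed miRNAs of cholesterol and lipid metabolism, miR-33-5p is the closest in setting, since it lies in an intron of Srebf2, which encodes SREBP2. Its signal in wild-type EVs was 8.28 ± 2.45 with chow and 12.5 ± 4.19 with HFD, in LKO EVs 6.03 ± 2.20 and 7.64 ± 4.89, and it was not above background on any array. In HFD-EV over Chow-EV 9 of the 11 listed miRNAs with a ratio were above 0 and none was 2-fold, with a median of 0.43. Over all miRNAs above background on both arrays the median was 0.10, and 2.74% were past 2-fold upwards when bounds are counted. The largest were miR-34a-5p, a miRNA induced by p53 that represses Sirt1, at 0.88 ± 0.06, miR-27a-3p at 0.68 ± 0.10 and miR-24-3p at 0.56 ± 0.06. In HFD-LKO EV over Chow-LKO EV 9 of 12 were above 0, with a median of 0.34 against 0.14 over all miRNAs, and miR-34a-5p at 1.07 ± 0.08 was the 1 that passed 2-fold (0.85 to 1.12 over the alternatives), as 4.21% of all miRNAs did, followed by miR-26a-5p at 0.54 and miR-24-3p at 0.53. In the genotype comparisons the list was split, with 3 of 11 above 0 under chow (median -0.04, against -0.13 over all miRNAs) and 6 of 11 under HFD (median 0.00, against -0.06). There miR-223-3p, a myeloid miRNA that like miR-96 and miR-185 represses SR-BI, was at 0.75 under chow and 0.73 under HFD, miR-26a-5p at -0.75 and -0.65, and the hepatocyte miRNA miR-148a-3p at -0.33 and -0.38. miR-185-5p was at 0.45 ± 0.11 for HFD over chow in wild-type and 0.38 ± 0.10 in LKO EVs.

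Markers of cells that are known to be rich in the cluster were mostly not detected. Of 7 epithelial miRNAs, 6 were above background on no array, including miR-200a-3p, miR-200b-3p, miR-200c-3p, miR-141-3p and miR-429-3p of the miR-200 family. The summed scaled signal of the epithelial list was 34.7% with chow and 34.9% with HFD in wild-type EVs, and 26.8% and 26.3% in LKO EVs, alike with both diets within each genotype. Its only member with a ratio was miR-203-3p, at 0.02 ± 0.11 for HFD over chow in wild-type and 0.03 ± 0.12 in LKO EVs. Of 4 endocrine and neural miRNAs only miR-7a-5p was above background, and miR-375-3p, miR-124-3p and miR-9-5p were not on any array. Their summed signal, 19.2% with chow and 33.9% with HFD in wild-type EVs, and 12.2% and 23.7% in LKO EVs, was higher with HFD in both genotypes. Only miR-7a-5p had a ratio, at 0.79 ± 0.14 for HFD over chow in wild-type and 0.92 ± 0.13 in LKO EVs. This is the direction of miR-96-5p and miR-182-5p, but for 1 miRNA and not for the list. The immune list summed to 103% (chow) and 131% (HFD) in wild-type EVs and to 159% and 199% in LKO EVs. The erythroid list summed to 11.4% and 13.4%, and to 16.2% and 22.3%. Both sums were highest in HFD-LKO EV, as were miR-182-5p and miR-183-5p, but single list members differed. In HFD-LKO EV over HFD-EV 3 of 4 immune ratios were above 0, with miR-142a-3p at -0.59. Of the 2 erythroid ratios there, miR-451a was at 1.08 and miR-486a-5p at -0.06. In HFD-LKO EV over Chow-LKO EV 3 of 4 immune ratios and 1 of 2 erythroid ratios were above 0, with miR-223-3p at -0.19 and miR-486a-5p at -0.25. Over all miRNAs above background on both arrays the median was 0.14 in this comparison and -0.06 in HFD-LKO EV over HFD-EV. The endothelial list ranged from 198% to 279% and the mesenchymal list, with 4 of 5 members above background on no array, from 8.31% to 13.3%. The part of such cells in the signals of the cluster was not tested.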

How the data were processed

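The deposited files were spot tables from Agilent Feature Extraction 10.7.1.1 and the authors' annotated tables. Per the file headers the intensity used, gProcessedSignal, was already background-subtracted; the authors' tables hold normalised log2 signals, used as an alternative, and the authors' ratios (fold changes) and comparisons, which were not used. In the combined table the HFD-EV values equal the Chow-EV log2 signal times the fold change, so HFD-EV was read from the separate wild-type table. Here, outlier spots were left out, spots of a probe averaged, probes of a miRNA summed, and each array divided by its 75th percentile over the 443 miRNAs detected on each of the 4 arrays. Ratios are log2. Spot SDs were carried through and cover spotting error only. Overlap of spots between arrays was judged on unscaled signals. The number of spots limits precision, and with 1 array per group no test was run. The arrays needed no mapping beyond the labels.

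The named miRNAs were the members, their 3p arms, any miRNA sharing a seed, miR-33-5p and up to 3 lipid miRNAs with the largest absolute ratios per comparison, and for a member above background on all 4 arrays the miRNAs with the most similar pattern. No member met the last condition. miR-185-5p was named beside miR-223-3p after its values were seen. The members and lists were chosen with earlier results of these data known. The scripts were tested on simulated data. Alternatives changed the scaling, background correction, outlier and detection rules, probe summary, fold threshold and signal minimum (30). Versions were Python 3.11.15, numpy 2.4.6, pandas 2.3.3, R 4.3.3 and limma 3.58.1.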

Additional observations from a re-analysis of the deposited data

Results flagged for a closer look

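The difference between LKO and wild-type EVs ran in opposite directions with the 2 diets for miR-183-3p. Its log2 value was -0.15 for Chow-LKO EV over Chow-EV, a ratio with a spot SD of 0.37, and 0.46 for HFD-LKO EV over HFD-EV, a bound with a spot SD of 0.38, so only the second exceeded its spot SD. The first turned positive under 3 other scalings, at 0.12 without scaling, 0.00 with the percentile over all miRNAs and 0.08 with quantile normalisation. With 1 array per group the difference between them was not tested.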

How the results depend on the processing

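Each group was 1 array of pooled EVs, so the spread between animals is unknown and the values describe these 4 hybridisations. The members lay near the array's floor. The spot SD is the spread of single spots, combined over the probes, and not the error of their mean, so it sets no detection limit. Differences were not tested, whether above or below it. No paired analysis was possible because each group was 1 array and no test was run. For the same reason no replicate was left out. The diet difference between genotypes gave no log2 value and was not rerun.

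For HFD-EV over Chow-EV the median of the cluster, 1.23, became 0.13 with normexp, 0.72 with the brightest probe, 0.22 with all signals raised to the floor and 0.42 with the authors' normalised values. For HFD-LKO EV over HFD-EV, -0.25, it became -0.77 with the total gene signal and 0.38 with the software's detection call, which adds miR-183-5p and a measured value for miR-182-5p in HFD-EV. For HFD-LKO EV over Chow-LKO EV, 0.61, it became 0.31 with quantile normalisation, 0.22 with normexp, 2.18 with the total gene signal, 1.44 with the detection call and 0.25 with the authors' values. The direction of each miR-96-5p and miR-182-5p value given above stayed the same in each alternative that gave one. For bounds this was mostly fixed beforehand, since a bound was kept only where the array above background was the brighter one. The sign was free only with the authors' values, with signals raised to the floor, and where both arrays were above background. A minimum signal of 30 left no member with a value, since no bounds were formed in that alternative. The only member signal above 30 was miR-96-5p in HFD-EV, at 40.3. Chow-LKO EV over Chow-EV gave a value only with signals raised to the floor, -0.14, where all 3 members sat at the floor on both arrays.

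Over all miRNAs the number at least 2-fold higher and lower was 14 and 9 for HFD-EV over Chow-EV (32 and 5 without scaling), 15 and 28 for Chow-LKO EV over Chow-EV (37 and 8), 41 and 39 for HFD-LKO EV over HFD-EV, and 22 and 8 for HFD-LKO EV over Chow-LKO EV (10 and 23). Across all alternatives, a 1.5-fold threshold included, these counts ranged from 2 to 82 and 2 to 69, 2 to 61 and 2 to 87, 10 to 83 and 5 to 105, and 1 to 93 and 1 to 41.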
